A study of Mus musculus with 22 samples.

Results

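The Kcn genes encode potassium channels: the subunits that form the pore and the smaller auxiliary proteins that ride with them. They were taken from the deposited expression table by name and biotype, as the protein-coding genes whose symbol starts with Kcn. The rule uses no measured value, but the family was chosen with earlier results of these data known. The rule gave 72 of the 17440 genes in the table. A further 22 annotated protein-coding Kcn genes, Kcnj8 of the ATP-sensitive channel among them, were not analysed here. The 72 fell into 12 classes by symbol. There were 15 pore subunits of the classical voltage-gated families Kv1 to Kv4, 8 silent Kv subunits and 4 Kv7 genes. Others were 7 genes of the EAG, ERG and ELK families, 10 inward rectifiers and 8 tandem-pore leak channels. A further 7 were pore genes of the calcium- or sodium-activated family, grouped by symbol and not by gating. The rest were 11 auxiliary genes of voltage-gated channels and 2 auxiliary genes of the large-conductance calcium-activated (BK) channel.

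The libraries came from 4 MCH-hM3Dq mice (numbered 1, 3, 4 and 5) and 7 control mice (numbered 1 to 7), all C57BL/6N, aged 10 to 13 weeks, fasted for 12 h and given clozapine N-oxide (CNO) for 1 h, so that the control mice received the ligand too. hM3Dq is a designer receptor that excites neurons when CNO binds it, and the genotype name places it in neurons that make melanin-concentrating hormone (MCH). How the receptor was delivered and what the control mice carry beyond the word control are not given in the labels, and libraries of 4 of the 5 hM3Dq mice in the design were used here. From the arcuate nucleus and median eminence of each mouse, an antibody against phosphorylated S6, a protein of the small ribosomal subunit (serines 244 and 247), was used to pull down ribosomes (the IP), and a portion of the same homogenate served as the input. S6 phosphorylation follows activity in many kinds of neuron and other cells, so the IP is not limited to MCH neurons.

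Potassium channels let potassium leave the cell and so pull the membrane toward rest. Voltage-gated Kv channels repolarize the spike and set firing rate, inward rectifiers and tandem-pore channels hold the resting potential, and calcium- and sodium-activated channels produce the pauses that follow spikes. In the arcuate nucleus, potassium channels are known as the point where leptin, insulin, glucose and opioids act on the excitability of feeding neurons.

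Promoter sequence is shown for Kcnc1 and Kcnt2, a gene that was higher in the IP and a gene that was lower, as the promoters of the genes called below that hold a cAMP response element core (TGACG, or CGTCA when read on the other strand) and overlap no annotated exon. The sequences are the 250 bases before the RefSeq start (build GRCm38.p6, plus strand, 5′ to 3′), at chr7:46396218-46396467 for Kcnc1 and chr1:140245468-140245717 for Kcnt2, with the core in capitals.
Kcnc1: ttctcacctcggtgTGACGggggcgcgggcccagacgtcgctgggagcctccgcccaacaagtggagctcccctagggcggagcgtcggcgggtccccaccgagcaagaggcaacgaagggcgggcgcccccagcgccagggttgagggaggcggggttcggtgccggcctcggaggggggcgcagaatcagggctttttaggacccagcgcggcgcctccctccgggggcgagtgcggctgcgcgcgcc
Kcnt2: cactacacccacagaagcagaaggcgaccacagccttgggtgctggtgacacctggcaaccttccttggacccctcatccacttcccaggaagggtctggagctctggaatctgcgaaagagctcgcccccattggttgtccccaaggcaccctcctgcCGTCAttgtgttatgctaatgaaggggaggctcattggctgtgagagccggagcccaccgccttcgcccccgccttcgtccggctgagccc
The core lies 232 bases before the start of Kcnc1 and 87 bases before that of Kcnt2, and the windows have a GC content of 74.4% and 61.6%. Of 50 Kcn genes with a RefSeq promoter (74 promoters), 11 promoters held the core on either strand, against 17.8% of 32851 promoters of all genes. The full element TGACGTCA, which contains the core, was in 0 of the 74 and in 1.55% of all promoters. The AP-1 letters TGANTCA were in 3 of the 74 (6.75% of all promoters) and the EGR letters GCGGGGGCG in 3 of the 74 (2.57% of all promoters), the Kcnt2 window among the EGR matches. A match of letters is a description of the sequence and not a binding site.

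Values are normalized FPKM, fragments scaled by the authors to transcript length and library size, which allows levels of different genes to be set side by side. Relative sequencing depth, read from the steps between low values, ran from 0.917 to 1.09 in hM3Dq IPs, from 0.868 to 1.25 in control IPs, from 0.923 to 1.08 in hM3Dq inputs and from 0.731 to 1.16 in control inputs, and the number of reads is unknown. Control mice 1, 5 and 6 held the 3 libraries with the most genes at 0, which were 1895 in control input 1, 1515 in control IP 5 and 1579 in control input 6. The arcuate markers Agrp, Npy and Pomc had medians of 24.7, 63.3 and 8.19 FPKM over the 22 libraries and none was at 0 in any, while Pmch, the precursor of MCH made in the neighbouring lateral hypothalamus, had a median of 275 FPKM. In control mouse 1 the 2 measured choroid plexus markers summed to 1797 FPKM in the IP and 286 FPKM in the input, against 1.91 to 11.3 FPKM in the other 20 libraries.

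Most Kcn genes were measured at low to moderate levels. The mean over the 22 libraries was at least 1 FPKM in 59 of the 72 genes, at least 10 FPKM in 20 and under 1 FPKM in 13, and the median Kcn gene had 3.85 FPKM, against 5.23 FPKM over all 17440 genes. Auxiliary genes and an inward rectifier led. Kcnip4, a calcium sensor that binds Kv4 channels, averaged 76.6 FPKM, followed by Kcnip1 of the same family at 49.0 FPKM and Kcnj10, the inward rectifier of astrocytes, at 39.0 FPKM. Kcnip3, also known as the calcium-dependent repressor DREAM, averaged 29.7 FPKM. Among pore genes of voltage-gated channels the highest were Kcnq3 (26.3 FPKM), a subunit of the M current that brakes firing, and the Kv1 genes Kcna6 (23.3 FPKM) and Kcna2 (21.6 FPKM). Kcnc1 of the Kv3 family averaged 20.2 FPKM and Kcnj3, the GIRK subunit opened by G protein beta-gamma, 19.8 FPKM.

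The levels of the leading pair, Kcnip4 and Kcnip1, overlapped in control mice and not in hM3Dq mice. Kcnip4 averaged 90.0 ± 19.9 FPKM in hM3Dq IPs and 74.6 ± 15.7 FPKM in control IPs, and 83.2 ± 11.6 FPKM in hM3Dq inputs and 67.1 ± 12.5 FPKM in control inputs (SD, n = 4 hM3Dq and n = 7 control mice). Kcnip1 averaged 47.1 ± 3.23 FPKM in hM3Dq IPs and 46.1 ± 8.24 FPKM in control IPs, and 44.4 ± 5.40 and 55.7 ± 9.53 FPKM in the hM3Dq and control inputs. Kcnip1 lay below Kcnip4 in each group mean, whereas the ranges of Kcnip1 (45.1 to 70.3 FPKM) and Kcnip4 (43.6 to 79.8 FPKM) overlapped in control inputs. In control IPs the ranges, 33.0 to 58.3 FPKM for Kcnip1 and 57.4 to 104 FPKM for Kcnip4, overlapped slightly. At the low end, Kcnh3, an ELK gene, averaged 0.173 FPKM and reached 1 FPKM in 0 of the 22 libraries. Kcne2, an auxiliary subunit also known from choroid plexus, ranged from 0 to 2.65 FPKM. Its 3 highest values were 2.65 FPKM in the IP of control mouse 1, the mouse with the high choroid plexus markers, 2.30 FPKM in the IP of control mouse 5 and 1.67 FPKM in the IP of control mouse 2, and the input of control mouse 1 had 0.246 FPKM.

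**Figure D1:**
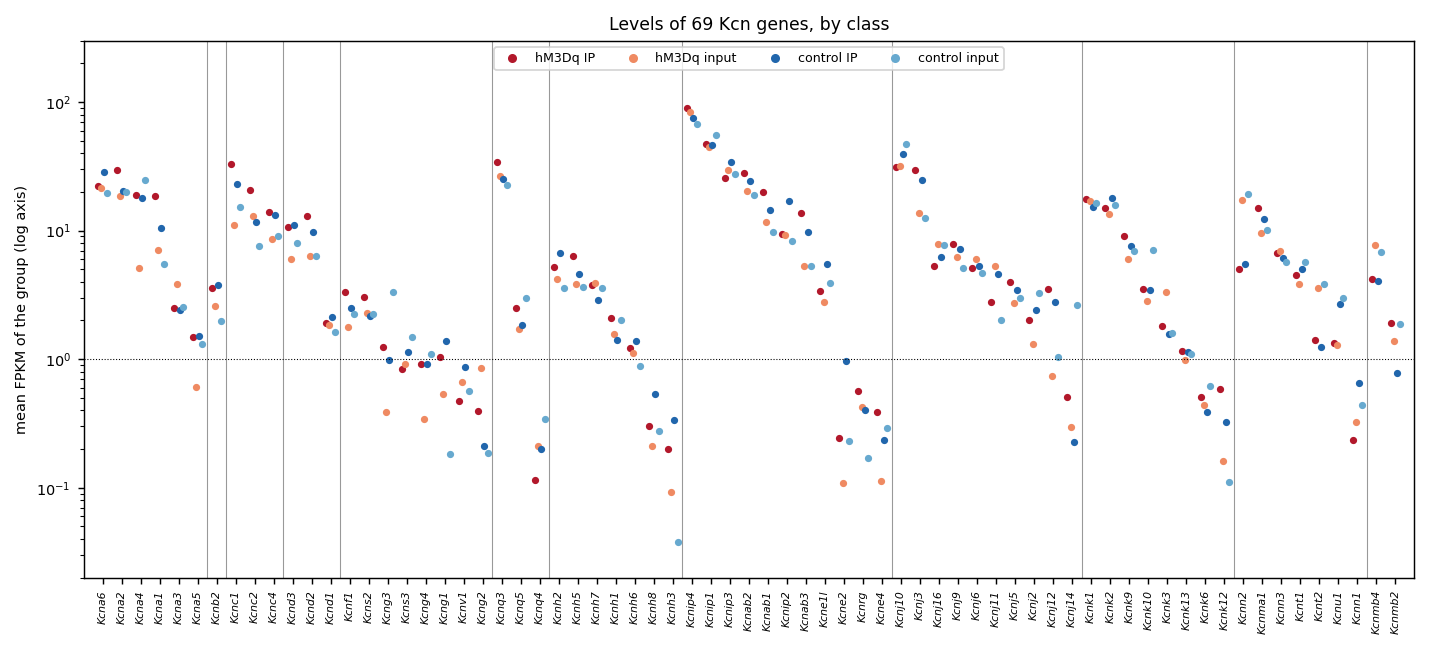
Mean FPKM of 69 Kcn genes (logarithmic vertical axis), in blocks by channel class with a dotted line at 1 FPKM, 1 point per gene and group, for hM3Dq IP, hM3Dq input, control IP and control input. Kcnip4, at 76.6 FPKM over all libraries, is the highest point, and Kcnh3, at 0.173 FPKM, the lowest gene.

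As a share of all FPKM, the 72 genes made up 0.141% to 0.231% in hM3Dq IPs and 0.109% to 0.154% in hM3Dq inputs, and 0.131% to 0.195% in control IPs and 0.0995% to 0.162% in control inputs. The IP of hM3Dq mouse 3 had the highest Kcn sum of the series, 951 FPKM, against 553 to 682 FPKM in the IPs of the other hM3Dq mice. The sum of the neuronal markers was highest in that library too, at 10571 FPKM, against 6235 to 8281 FPKM in the other hM3Dq IPs. That sum is mostly the marker Snap25, with a median of 5153 FPKM over the 22 libraries. No other neuronal marker measured exceeded 421 FPKM in any library.

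The first comparison set IP against input over all 11 mice, to see which channel transcripts the phospho-S6 pulldown kept. Called higher in the IP were 6 of the 15 pore subunits of Kv1 to Kv4 and a silent Kv subunit. A pair of beta subunits and a pair of inward rectifiers were higher too. Kcnn2, the SK2 channel, and Kcnt2, a sodium-activated channel, were lower. In all, 11 of the 60 Kcn genes tested were called higher and 3 lower by limma on log2(FPKM + 1) with mouse as a block (adjusted p under 0.05), and over all 14582 genes tested 16.1% were called, 8.71% higher and 7.34% lower. The 60 are the Kcn genes with 1 FPKM or more in at least 4 libraries, which left out 12. The log2 difference was above 0 in 42 of the 60, against 53.4% of all genes, with a median of 0.24 for the Kcn genes and 0.03 for all genes tested. In bulk tissue a larger share of cells of a type and more RNA per cell cannot be told apart, and here more RNA in captured ribosomes cannot be told apart from either.

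**Figure D2:**
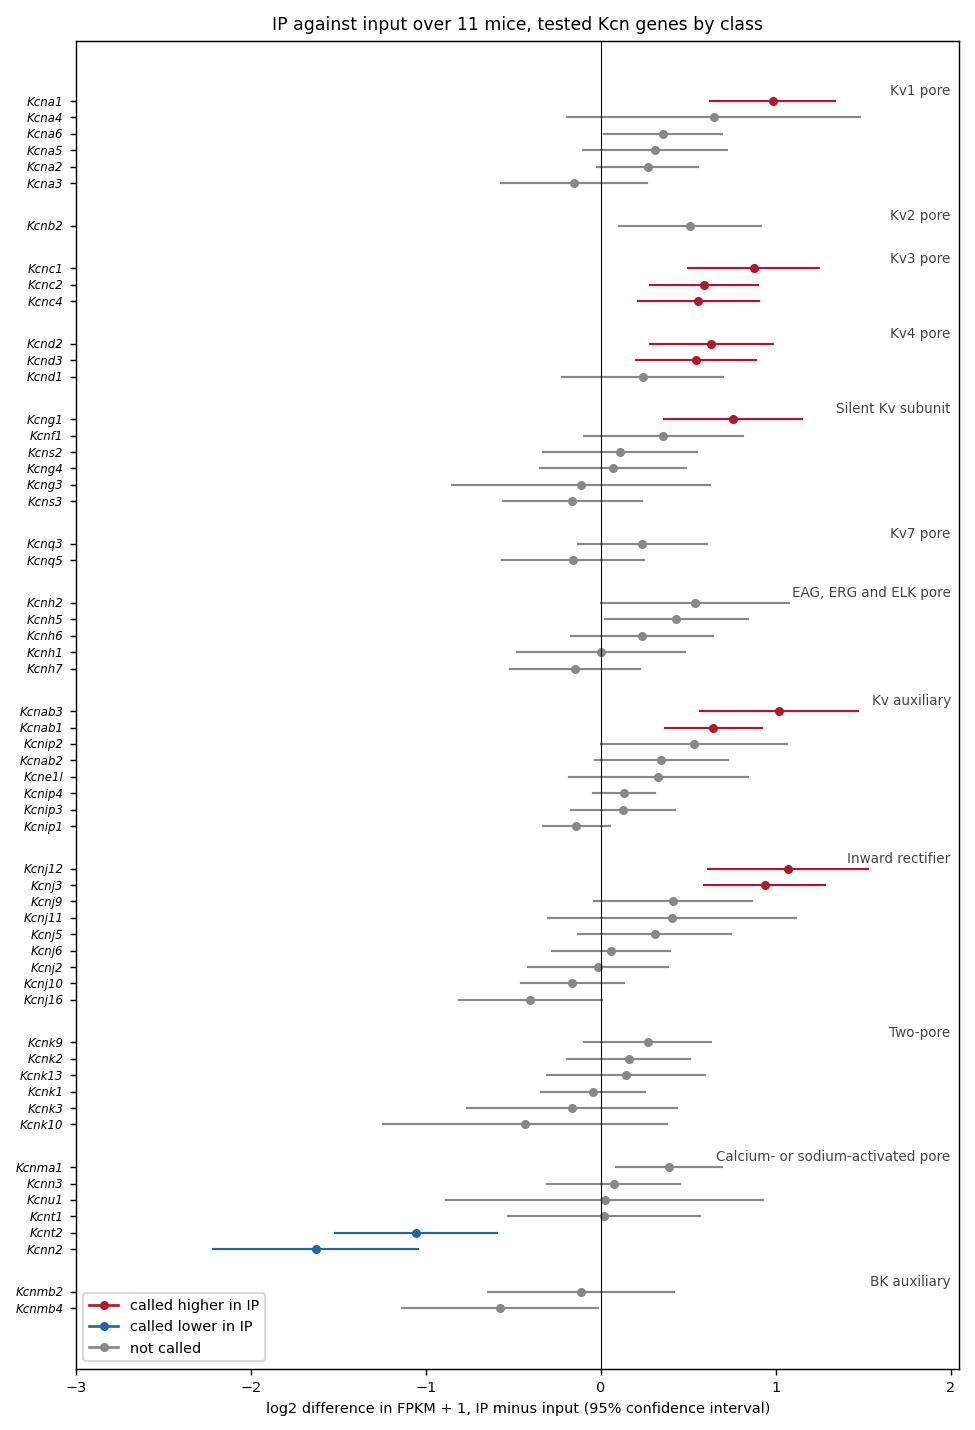
Log2 difference of IP over input in all 11 mice for 57 of the 60 Kcn genes tested, grouped by channel class, with the 95% confidence interval of the limma fit as bars. Genes called lie at both ends, from Kcnj12 at 1.07 to Kcnn2 at -1.63.

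The Kv1 family opens at low voltage along axons. Kcna1 had 14.0, 34.8, 12.8 and 12.7 FPKM in the IPs of hM3Dq mice 1, 3, 4 and 5, against 4.90, 11.3, 5.26 and 6.85 FPKM in their inputs. Across control mice Kcna1 ran from 7.01 to 14.4 (median 10.7) FPKM in the IPs, against 3.66 to 9.44 (median 4.35) FPKM in the inputs. Every hM3Dq IP of Kcna1 lay above every hM3Dq input, mouse 3 was the highest in both fractions, and the control ranges overlapped. Ranges of 7 libraries tend to be wider than ranges of 4, here and for the genes below. Overlap in control mice alone is therefore not a difference between genotypes. Kcna1 (chromosome 6, 126640397 to 126646384, GRCm38) was 0.98 log2 units higher in the IP (SE 0.169, limma adjusted p = 0.000739) and higher in 10 of 11 mice. Of the 6 Kv1 genes it alone was called. Kcna2, the usual partner of Kcna1 in axons, had a difference of 0.27 (limma adjusted p = 0.206) and Kcna6 of 0.36 (limma adjusted p = 0.148). Kcna4, the family's fast-inactivating A-type member, had a difference of 0.64 (limma adjusted p = 0.305), and without control mouse 1, whose input held 115 FPKM against 4.14 to 13.8 FPKM in the other control inputs, of 1.07 (limma adjusted p = 0.00406).

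The Kv3 family opens at high voltage and closes fast, which lets neurons fire at high rates. Kcnc1 had 35.0, 48.9, 26.2 and 20.9 FPKM in the IPs of hM3Dq mice 1, 3, 4 and 5, against 10.2, 15.7, 7.05 and 11.2 FPKM in their inputs. Across control mice Kcnc1 ran from 15.0 to 39.8 (median 20.6) FPKM in the IPs, against 11.1 to 20.1 (median 14.3) FPKM in the inputs. The hM3Dq IPs of Kcnc1 did not overlap the inputs, while those of control mice did. Kcnc1 (chromosome 7, 46396497 to 46438704) was 0.87 log2 units higher in the IP (SE 0.177, limma adjusted p = 0.00270), in 10 of 11 mice. Kcnc2 was higher by 0.59 (limma adjusted p = 0.0109, 10 of 11 mice) and Kcnc4 by 0.56 (limma adjusted p = 0.0285, 9 of 11 mice). Without the mouse block Kcnc2 had a limma adjusted p of 0.123. The call on Kcnc4 was lost on leaving out any of hM3Dq mice 1, 3 and 4 or control mice 3 and 4 (limma adjusted p of 0.0598 to 0.0691).

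The Kv4 family carries the subthreshold A current of cell bodies and dendrites, with Kcnip proteins as partners. Kcnd2 had 14.8, 18.4, 10.1 and 8.35 FPKM in the IPs of hM3Dq mice 1, 3, 4 and 5, against 7.33, 6.92, 5.65 and 5.42 FPKM in their inputs. Across control mice Kcnd2 ran from 5.93 to 14.7 (median 7.96) FPKM in the IPs, against 3.73 to 7.54 (median 6.86) FPKM in the inputs. In hM3Dq mice the IP and input ranges of Kcnd2 did not overlap, and in control mice they did. Kcnd2 (chromosome 6, 21215503 to 21729805) was 0.63 log2 units higher in the IP (SE 0.167, limma adjusted p = 0.0161), in 9 of 11 mice. Kcnd3 was higher by 0.54 (SE 0.162, limma adjusted p = 0.0299) in all 11 mice, and lost its call without any of hM3Dq mice 1, 3 and 5 or control mice 4 and 7 (limma adjusted p of 0.0519 to 0.0741), and without the mouse block (0.0615). Kcnd1, the least abundant of the 3, had a difference of 0.24 (limma adjusted p = 0.511).

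The Kv2 family makes delayed rectifiers, and its pore gene Kcnb2 had a difference of 0.51 (limma adjusted p = 0.0818). Silent subunits make no channel alone and join Kv2 pores. Kcng1 had 1.34, 1.09, 0.982 and 0.706 FPKM in the IPs of hM3Dq mice 1, 3, 4 and 5, against 0.0924, 0.372, 1.10 and 0.581 FPKM in their inputs. Across control mice Kcng1 ran from 0.529 to 2.96 (median 1.05) FPKM in the IPs, against 0 to 0.393 (median 0.173) FPKM in the inputs. The control IPs of Kcng1 all lay above the control inputs, and hM3Dq mouse 4 alone had more in its input than in its IP. Kcng1 was called, 0.75 log2 units higher in the IP (SE 0.187, limma adjusted p = 0.0109, 10 of 11 mice). Its level was near the floor of the table: it reached 1 FPKM in 7 of 22 libraries, 6 of them IPs, so that it passed the filter through the fraction where it was high. Of the other 5 silent subunits tested, Kcng3 and Kcns3 among them, 0 were called.

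Auxiliary genes of voltage-gated channels divided between beta subunits and calcium sensors. Beta subunits are cytoplasmic proteins that bind Kv1 channels and speed their inactivation. Kcnab3 had 5.98, 25.7, 8.34 and 15.3 FPKM in the IPs of hM3Dq mice 1, 3, 4 and 5, against 2.59, 10.5, 0.633 and 7.37 FPKM in their inputs. Across control mice Kcnab3 ran from 4.10 to 15.0 (median 10.2) FPKM in the IPs, against 2.38 to 9.40 (median 5.03) FPKM in the inputs. Mouse 3 had the highest and mouse 1 the lowest hM3Dq IP of Kcnab3, and the IP and input ranges overlapped in both genotypes. Kcnab3 (chromosome 11, 69326258 to 69333042) was nonetheless higher in the IP in 11 of 11 mice, by 1.02 log2 units (SE 0.214, limma adjusted p = 0.00345). Its locus overlaps the antisense gene Kcnab3os, and whether counting used strand is not given in the sources used here.

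Kcnab1 had 17.8, 25.5, 15.9 and 21.3 FPKM in the IPs of hM3Dq mice 1, 3, 4 and 5, against 12.1, 13.9, 5.87 and 14.6 FPKM in their inputs. Across control mice Kcnab1 ran from 11.2 to 17.6 (median 14.5) FPKM in the IPs, against 7.57 to 15.6 (median 8.44) FPKM in the inputs. All hM3Dq IPs of Kcnab1 exceeded all hM3Dq inputs, and control ranges overlapped. Kcnab1 (chromosome 3, 65109384 to 65378223) was higher in the IP in 11 of 11 mice, by 0.64 log2 units (SE 0.132, limma adjusted p = 0.00294). It overlaps a pair of genes on the opposite strand, and AC113458.1 on the same strand. Kcnab2, the most abundant beta subunit, had a difference of 0.35 (limma adjusted p = 0.216). Of the 4 calcium sensors tested 0 were called: Kcnip1 had -0.14, Kcnip3 0.12 and Kcnip4 0.13 (limma adjusted p of 0.340, 0.609 and 0.321), and Kcnip2 had 0.53 (limma adjusted p = 0.172).

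**Figure D3:**
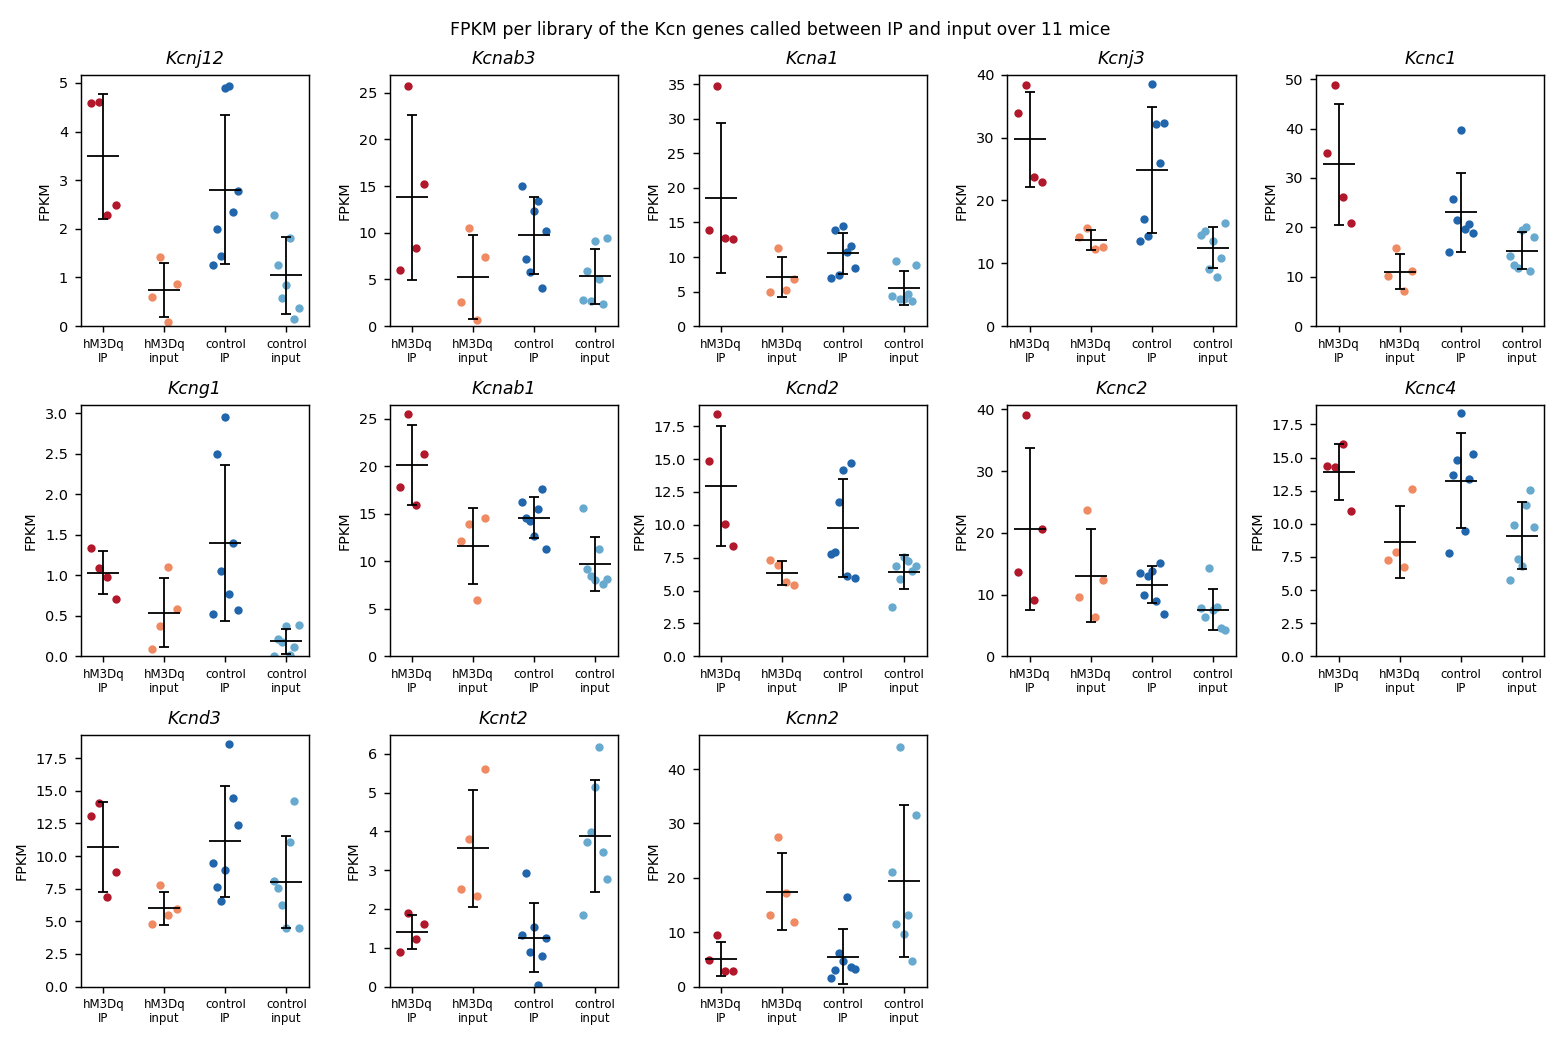
FPKM per library of 13 Kcn genes called in IP against input over all mice, with hM3Dq left of control and IP left of input, 1 point per library, the mean as a horizontal line and the SD as a bar (n = 4 hM3Dq and 7 control mice). For Kcnj3 the hM3Dq IPs lie at 23.0 to 38.3 FPKM, above the hM3Dq inputs at 12.2 to 15.7 FPKM, and for Kcnn2 they lie at 2.85 to 9.46 FPKM, below inputs at 11.9 to 27.4 FPKM.

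Among inward rectifiers, the GIRK subunit Kcnj3 and the strong rectifier Kcnj12 were higher in the IP. Kcnj3 had 33.8, 38.3, 23.6 and 23.0 FPKM in the IPs of hM3Dq mice 1, 3, 4 and 5, against 14.2, 15.7, 12.2 and 12.5 FPKM in their inputs. Across control mice Kcnj3 ran from 13.5 to 38.5 (median 26.0) FPKM in the IPs, against 7.89 to 16.3 (median 13.6) FPKM in the inputs. The IPs of all hM3Dq mice lay above their inputs with no overlap, and those of control mice 1 and 2 lay near their inputs. Kcnj3 (chromosome 2, 55435970 to 55598145) was 0.94 log2 units higher (SE 0.163, limma adjusted p = 0.000774) and higher in 10 of 11 mice. The other GIRK subunits had smaller differences, 0.41 for Kcnj9 and 0.06 for Kcnj6 (limma adjusted p of 0.216 and 0.854), and the differences between subunits were not tested.

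Kcnj12 had 4.59, 4.60, 2.28 and 2.49 FPKM in the IPs of hM3Dq mice 1, 3, 4 and 5, against 0.599, 1.42, 0.0831 and 0.864 FPKM in their inputs. Across control mice Kcnj12 ran from 1.25 to 4.93 (median 2.35) FPKM in the IPs, against 0.142 to 2.29 (median 0.852) FPKM in the inputs. All 4 hM3Dq IPs of Kcnj12 were above the inputs, and in control mouse 1 the input was the higher fraction. Kcnj12 (chromosome 11, 61022564 to 61071131) was 1.07 log2 units higher in the IP (SE 0.217, limma adjusted p = 0.00276), in 10 of 11 mice. It reached 1 FPKM in 11 of 11 IPs and in 4 of 11 inputs. Kcnj11, the pore of the ATP-sensitive channel, had a difference of 0.41 (limma adjusted p = 0.465). The astrocytic rectifiers Kcnj10 and Kcnj16 had differences of -0.16 and -0.40 (limma adjusted p of 0.479 and 0.176).

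Kcnn2 encodes the SK2 channel, which opens on calcium entry and makes the medium afterhyperpolarization. Kcnn2 had 4.93, 9.46, 2.91 and 2.85 FPKM in the IPs of hM3Dq mice 1, 3, 4 and 5, against 13.2, 27.4, 17.3 and 11.9 FPKM in their inputs. Across control mice Kcnn2 ran from 1.57 to 16.5 (median 3.55) FPKM in the IPs, against 4.70 to 44.1 (median 13.1) FPKM in the inputs. In hM3Dq mice every IP lay below every input, whereas in control mice only mouse 5 had more in the IP (16.5 FPKM) than in the input (13.1 FPKM), and the ranges overlapped. Kcnn2, on chromosome 18, was lower in the IP, with a log2 difference of -1.63 (SE 0.277, limma adjusted p = 0.000662), in 10 of 11 mice. The locus overlaps 4 genes on the opposite strand, among them A330093E20Rik. The related Kcnn3 (SK3) had a difference of 0.07 (limma adjusted p = 0.837), and Kcnn1 was below the filter with 0.236 ± 0.297 FPKM in hM3Dq IPs and 0.325 ± 0.289 FPKM in hM3Dq inputs (SD, n = 4).

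Kcnt2 encodes the sodium-activated channel Slick. Kcnt2 had 0.893, 1.89, 1.23 and 1.62 FPKM in the IPs of hM3Dq mice 1, 3, 4 and 5, against 2.53, 3.81, 2.33 and 5.60 FPKM in their inputs. Across control mice Kcnt2 ran from 0.0415 to 2.94 (median 1.25) FPKM in the IPs, against 1.84 to 6.18 (median 3.72) FPKM in the inputs. The hM3Dq IPs all lay below the inputs, and the lowest control value was the IP of mouse 5. Kcnt2 (chromosome 1, 140246158 to 140612067) was lower in the IP in 11 of 11 mice, with a log2 difference of -1.06 (SE 0.219, limma adjusted p = 0.00320). Its relative Kcnt1 (Slack) had a difference of 0.02 (limma adjusted p = 0.976). The BK pore gene Kcnma1, with 0.39, and its neuronal beta subunit Kcnmb4, with -0.58, had limma adjusted p of 0.0736 and 0.159. Kcnmb4 passed the threshold without control mouse 5 (log2 difference -0.80, limma adjusted p = 0.0158) and Kcnma1 without control mouse 2 (0.47, limma adjusted p = 0.0369).

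The M current, which receptors coupled to Gq shut off, is carried by Kv7 channels. The Kv7 gene Kcnq3 had a difference of 0.24 and Kcnq5 of -0.16 (limma adjusted p of 0.404 and 0.628). Of the 6 tandem-pore leak genes tested 0 were called, with Kcnk1 at -0.04, Kcnk2 at 0.16 and Kcnk9 at 0.27 (limma adjusted p of 0.878, 0.576 and 0.326). Of the 5 EAG, ERG and ELK genes tested 0 were called too. Kcnh2 (ERG1) had the largest difference, 0.54 (limma adjusted p = 0.169), and Kcnh5 had 0.43 (limma adjusted p = 0.147).

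Markers of other cell types differed between IP and input too. Of 9 neuronal markers tested 8 were called higher in the IP, with a median log2 difference of 0.50. Their sums, mostly Snap25, ran from 6235 to 10571 FPKM in hM3Dq IPs and from 5070 to 6674 FPKM in hM3Dq inputs. In control mice these sums ran from 5761 to 8564 FPKM in IPs and from 4478 to 5940 FPKM in inputs. Of 8 oligodendrocyte markers 5 were called lower (median -0.64), and their sums ran from 396 to 1266 FPKM in hM3Dq IPs and from 697 to 1758 FPKM in hM3Dq inputs, and from 551 to 1214 FPKM in control IPs and from 854 to 1684 FPKM in control inputs. No marker of either list was at 0 in any library, and the part of cell makeup in the Kcn differences was not tested. The longest annotated transcript had a median of 4158 bases in the 60 Kcn genes. It was 3150 bases over 14599 entries of all genes tested, more than the 14582 genes because some were matched more than once. Across genes, which are not independent replicates, log2 length and log2 difference had a Pearson r of 0.03 in the Kcn genes. The r was 0.11 over the 14599 entries. Of the 72 loci, 37 overlap another annotated gene and 34 overlap one on the opposite strand. The called genes Kcnd2, Kcnd3, Kcnj3 and Kcnt2 are among the 37, besides those noted above.

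Within the hM3Dq mice alone, 9 of 56 Kcn genes tested were called higher in the IP and 1 lower, against 5.41% and 4.90% of 12987 genes (10.3% in either direction). The 3 Kv1 genes Kcna4 (1.57, SE 0.234, limma adjusted p = 0.00386), Kcna1 (1.21, limma adjusted p = 0.00638) and Kcna2 (0.65, limma adjusted p = 0.0285) were among them, each higher in 4 of 4 mice. Kcna4 had 12.3, 43.4, 10.3 and 10.1 FPKM in the IPs of hM3Dq mice 1, 3, 4 and 5, against 3.00, 9.62, 5.11 and 2.64 FPKM in their inputs. Mouse 3 was far above the others in the IP, and all IPs lay above all inputs. Kcnc1 was higher by 1.47 log2 units (SE 0.193, limma adjusted p = 0.00212), Kcnab3 by 1.41 (limma adjusted p = 0.0152) and Kcnj12 by 1.38 (limma adjusted p = 0.0121). Kcnj12 reached 1 FPKM in all 4 of these IPs and in 1 input, so that it passed the filter through the fraction where it was high. Kcnj3 was higher by 1.04 (limma adjusted p = 0.00453), Kcnd2 by 0.87 (limma adjusted p = 0.0285) and Kcnab1 by 0.79 (limma adjusted p = 0.0312). Kcnn2 was lower, at -1.67 (SE 0.222, limma adjusted p = 0.00224). The call on Kcnab1 held in 3 of 11 alternatives, that on Kcnd2 in 4, that on Kcna2 in 4 and that on Kcnab3 in 7 (limma adjusted p up to 0.115, 0.125, 0.175 and 0.182). Kcnab1 and Kcnd2 lost their calls on leaving out any of the 4 mice, Kcna2 without mouse 1, 3 or 5, Kcnab3 without mouse 3 and Kcnj12 without mouse 1. Kcn calls numbered 10 with all 4, 6 without mouse 1, 5 without mouse 3, 8 without mouse 4 and 7 without mouse 5. Calls over all genes fell from 1338 of 12987 to 575 of 12430, 599 of 12407, 706 of 12482 and 836 of 12444 in turn.

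Within the control mice 0 of 60 Kcn genes were called higher and 1 lower, against 2.23% and 2.61% of 13999 genes (4.84% in either direction). Kcnn2 was lower, with a log2 difference of -1.61 (SE 0.402, limma adjusted p = 0.0392), in 6 of 7 mice, and this call held in 8 of 15 alternatives. It was lost on leaving out any of control mice 1, 2, 3, 4 and 7, with no filter (limma adjusted p = 0.0996) and with no trend (limma adjusted p = 0.0798). Without control mouse 1 the count was 2, both higher, against 718 of 13762 genes over all. Several genes lay close to the threshold: Kcng1 with 0.94 (limma adjusted p = 0.0553), which reached 1 FPKM in 4 control IPs and 0 control inputs and so passed the filter through the IP, Kcnj3 with 0.88 (limma adjusted p = 0.0589) and Kcnt2 with -1.15 (limma adjusted p = 0.0626). At an unadjusted p under 0.05 there were 20 Kcn genes in hM3Dq mice, against 26.1% of all genes tested, and 15 in control mice, against 19.5% of all genes tested. The log2 difference was above 0 in 41 of 56 Kcn genes in hM3Dq mice, against 53.1% of all genes, and in 41 of 60 in control mice, against 52.7%. These 2 comparisons use the libraries that the comparison over all mice pools, and a call in hM3Dq mice and not in control mice is not a difference between genotypes.

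**Figure D4:**
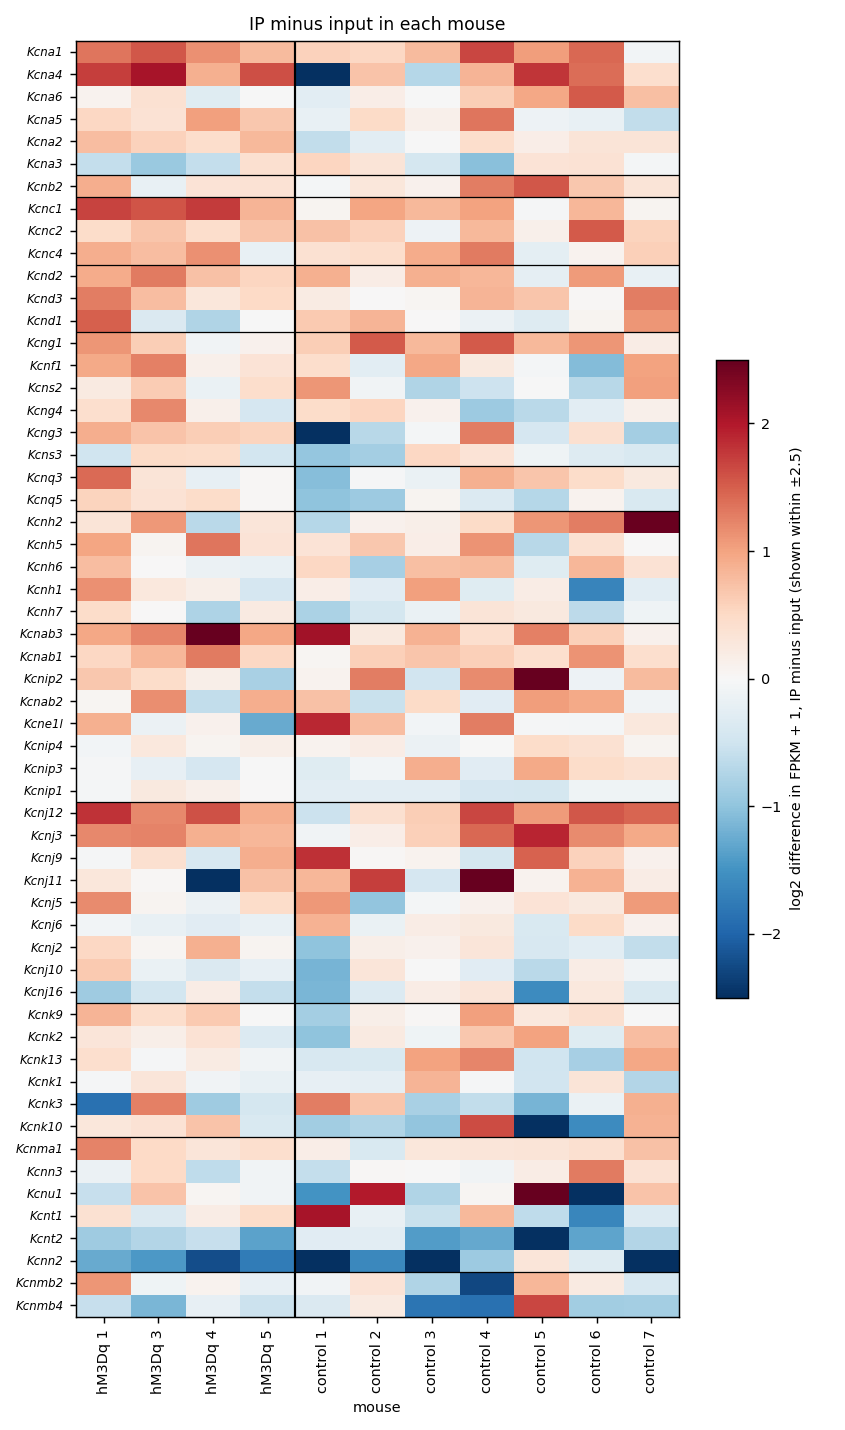
Log2 difference of IP over input, log2(FPKM + 1), in each of the 11 mice for 57 of the Kcn genes tested over all mice, in blocks by channel class, with hM3Dq mice left of control mice and the colours limited at both ends of the scale. The median over all tested Kcn genes of a mouse runs from 0.09 to 0.52 in the 4 hM3Dq mice and from -0.06 to 0.33 in the 7 control mice.

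Mice differed in how far the Kcn genes as a whole were raised in the IP. The median log2 difference over the Kcn genes was 0.28 ± 0.203 (SD, n = 4, from 0.09 to 0.52) in hM3Dq mice and 0.16 ± 0.136 (SD, n = 7, from -0.06 to 0.33) in control mice, and the ranges overlapped. The same median over neuronal markers was 0.46 ± 0.0901 in hM3Dq mice and 0.45 ± 0.180 in control mice (SD, n = 4 and n = 7).

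The comparison that the series was built for sets hM3Dq against control mice in the IP. Here 0 of 59 Kcn genes were called by limma, against 0.00739% of 13531 genes. An unadjusted p under 0.05 was found for 4, against 5.23% of all genes. Kcna1 was 0.67 log2 units above control (SE 0.286, 95% interval 0.07 to 1.28, limma adjusted p = 0.902), with the 4 hM3Dq IPs at 14.0, 34.8, 12.8 and 12.7 FPKM and the control IPs at 7.01 to 14.4 (median 10.7) FPKM. The values of mice 1, 4 and 5 lay inside the control range and mouse 3 lay above it, and without mouse 3 the log2 difference was 0.34. Kcna2 had a difference of 0.49 (limma adjusted p = 0.891), or 0.29 without mouse 3, and Kcnab1 of 0.43 (limma adjusted p = 0.902), or 0.31 without mouse 3. Kcne1l, an auxiliary subunit of the Kcne family, had -0.89 (limma adjusted p = 0.922), and -1.43 without hM3Dq mouse 1 or -0.53 without hM3Dq mouse 5. The difference was above 0 in 42 of the 59 genes, against 49.0% of all genes, with a median of 0.10, and of 0.06 without mouse 3. Markers of cell types differed in the same comparison, with 0 called. Of 9 neuronal markers 8 were above 0 (median 0.22). Their sums, mostly Snap25, were 6235 to 10571 FPKM in hM3Dq IPs and 5761 to 8564 FPKM in control IPs. Of 7 astrocyte markers 1 was above 0 (median -0.39), with sums of 123 to 340.2 FPKM in hM3Dq IPs and 185 to 386 FPKM in control IPs. Of 8 markers of arcuate neurons 2 were above 0 (median -0.75), with sums of 77.1 to 245 FPKM in hM3Dq IPs and 164 to 547 FPKM in control IPs. None of these 24 markers was at 0 in any library, and their part in the Kcn differences was not tested. The 95% interval was -0.18 to 0.96 for Kcnq3 of the M current, for the GIRK subunit Kcnj3 -0.29 to 0.92 and for Kcnj11 -1.19 to 0.44, on the log2 scale.

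In the input 0 of 58 Kcn genes were called, against 0.00% of 13512 genes, while the unadjusted p was under 0.05 for 2, against 4.54% of all genes. Kcnj10 had 24.2, 48.1, 29.7 and 24.3 FPKM in the inputs of hM3Dq mice 1, 3, 4 and 5, and 33.3 to 68.4 (median 40.4) FPKM in control inputs. The hM3Dq inputs of mice 1, 4 and 5 lay below the lowest control input and mouse 3 lay within the control range. The log2 difference was -0.57 (SE 0.234, limma adjusted p = 1.00). All 7 measured astrocyte markers had lower means in hM3Dq inputs too (median -0.46, 0 called), with sums of 191 to 350 FPKM in hM3Dq inputs and 302 to 379 FPKM in control inputs. This was not particular to astrocytes: 0 of 4 tanycyte markers (median -0.78) and 0 of 8 arcuate neuron markers (-0.54) were above 0. Of 9 neuronal markers 7 were above 0 (median 0.11), and of 8 oligodendrocyte markers 3 (-0.08). The part of cell makeup in the Kcnj10 difference was not tested. Kcna4 had a difference of -1.35 in the input, and -0.84 without control mouse 1. The median Kcn difference in the input was 0.00, and 29 of 58 genes were above 0, against 47.2% of all genes.

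The IP over input difference of each mouse was then compared between genotypes, so that both fractions enter the result. Of 60 Kcn genes 0 were called by limma, against 0.00% of 14582 genes, and 38 had a difference above 0, against 51.1% of all genes. The unadjusted p was under 0.05 for 3, against 3.07% of all genes. These were Kcnc1, with a difference of 0.93 (SE 0.298, 95% interval 0.30 to 1.56, unadjusted p = 0.00676 by limma, adjusted p = 0.999), Kcna2 with 0.60 (0.06 to 1.13) and Kcnq5 with 0.80 (0.04 to 1.57). For Kcnc1 the hM3Dq IPs were at 35.0, 48.9, 26.2 and 20.9 FPKM over inputs at 10.2, 15.7, 7.05 and 11.2 FPKM. Control IPs of Kcnc1 ran from 15.0 to 39.8 FPKM over inputs at 11.1 to 20.1 FPKM. Under the alternatives, the hM3Dq minus control difference of Kcnc1 was -0.63 to -0.27 in the input and 0.27 to 0.66 in the IP. For Kcnq5 it was -0.66 to -0.38 in the input and 0.24 to 0.45 in the IP. For Kcna2 it was -0.33 to 0.003 in the input and 0.29 to 0.61 in the IP. Leaving out hM3Dq mouse 3 gave 0.89 for Kcnc1, 0.62 for Kcna2 and 0.80 for Kcnq5. Kcnn2, lower in the IP in both genotypes, had -0.06 (-1.33 to 1.21), and Kcna4 1.46 (-0.16 to 3.09), or 0.83 without control mouse 1.

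In the authors' deposited table, which compares the IP over input ratios between genotypes and gives no adjusted p, 5 of the 72 Kcn genes had a p-value under 0.05, against 2.82% of all 17440 genes. These were Kcna2 (authors' log2 fold change 0.59, p = 0.00615 in the authors' deposited table), Kcnq5 (1.07, p = 0.00751), Kcnip1 (0.36, p = 0.00800), Kcnc1 (0.96, p = 0.0270) and Kcna4 (1.06, p = 0.0345), each with a higher mean ratio in hM3Dq mice. That table and the fit above use the same libraries.

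**Figure D5:**
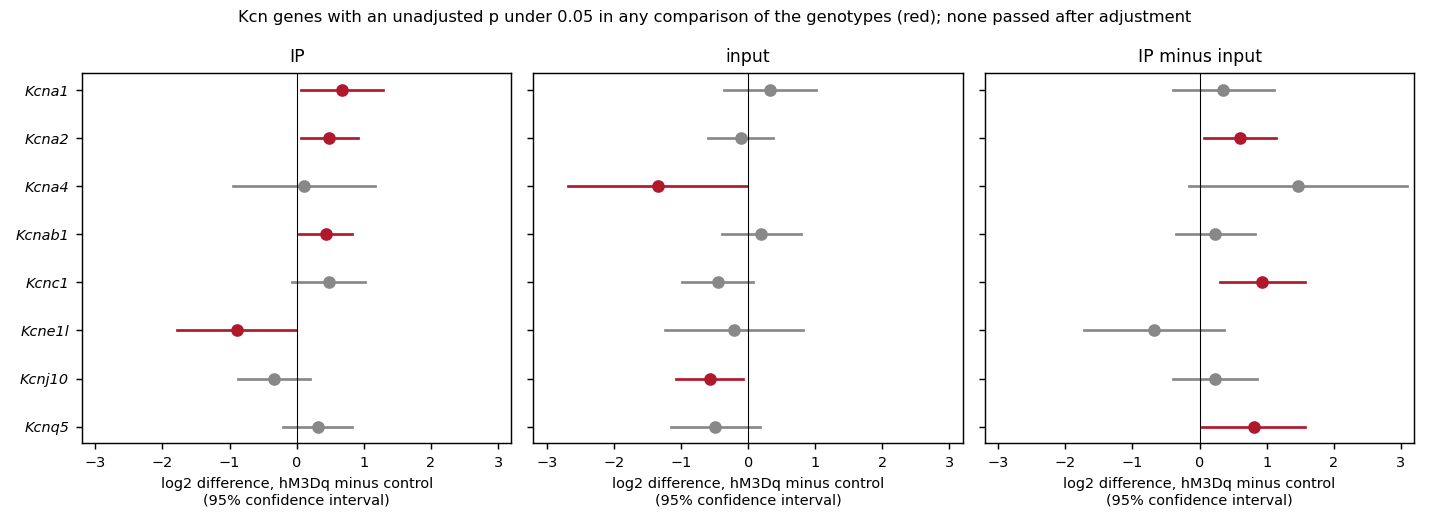
Log2 difference of hM3Dq minus control with its 95% confidence interval for the 8 Kcn genes with an unadjusted p under 0.05 in any comparison of the genotypes, in panels for the IP, the input and IP minus input per mouse. Red marks the comparisons with that p, such as Kcnc1 at 0.93 in IP minus input, and 0 genes passed an adjusted p of 0.05 in any panel.

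Proteins that assemble with Kv channels were followed as a list of 13 genes. Over all mice 2 were called higher in the IP, against 8.71% of all genes, and 0 lower, with a median of 0.25: Cntnap2 (CASPR2), which clusters Kv1 channels beside the node, with 0.75 (limma adjusted p = 0.000319), and the scaffold Dlg2 with 0.56 (limma adjusted p = 0.00394). In hM3Dq mice 4 of the 13 were called higher, against 5.41% of all genes, Ank3 and Lgi1 in addition to these (0.61 and 0.65, limma adjusted p of 0.0383 and 0.0404), and in control mice 1, Cntnap2, against 2.23% of all genes. Of 6 tested partners of ATP-sensitive and calcium-activated channels 3 were called higher over all mice, among them Lingo1 (0.85) and the BK gamma subunit Lrrc55 (0.54).

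Other channel families of the membrane were not called in the same fit. None of 6 sodium channel pore genes (median -0.12), 8 calcium channel pore genes (median -0.08) and 4 HCN genes (median -0.24) passed an adjusted p of 0.05 by limma over all mice, and 0 of these genes had an unadjusted p under 0.05. The difference between these families and the Kcn genes was not tested.

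Some Kcn genes lie side by side in the genome, and no pair of neighbours named here had both genes called over all mice. Whether unrelated pairs of genes differ from this was not tested. Kcna1 lies 61944 bases from Kcna6 on chromosome 6, and Kcna1 was called over all mice while Kcna6 was not. Kcnc1 lies 295732 bases from Kcnj11 on chromosome 7, and Kcna2 lies 323297 bases from Kcnc4 on chromosome 3, with 1 gene of each of these neighbours called. Kcnj9 and Kcnj10 on chromosome 1, 11891 bases apart, and Kcnj16 and Kcnj2 on chromosome 11, 38195 bases apart, had neither gene called.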

How the data were processed

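The authors deposited 1 table of normalized FPKM for 17440 genes in 22 libraries, an IP and an input from each of 4 hM3Dq and 7 control mice. The submitters' processing notes name the aligner HISAT2 (2.1.0), the assembler StringTie (1.3.4d) and the genome build GRCm38.p6. The normalization and whether counting used strand are not given in the sources used here. The table also holds the authors' IP over input ratio per mouse (178363 filled ratios, of which 0 differed from IP over input by more than 0.1%), and the authors' p-value per gene. The authors' log2 fold change, treated here as a score since its scale is stated only by its name, was checked on the file: it is the log2 of mean ratio in hM3Dq mice divided by that in control mice. Exact zeros made up 4.05% of the FPKM values.

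The number of reads is unknown. Steps between low values gave relative depth, from 0.731 to 1.25, a 1.71-fold range, and 199 of 231 library pairs gave estimates that agreed within 0.1 on the log2 scale. No interval from counts can therefore be given.

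Values were analysed as log2(FPKM + 1). Genes with 1 FPKM or more in at least 4 libraries of a comparison were tested with limma 3.58.1 in R 4.3.3 (lmFit, eBayes with trend, two-sided), and p-values were adjusted by Benjamini-Hochberg over all genes tested. IP and input carry the same mouse number within a genotype and come from the same homogenate, so mouse was a block in IP against input. Comparisons between genotypes are of different animals and were not blocked. In IP against input the p-values rest on the spread between mice of the IP minus input difference. Between genotypes they rest on the spread between mice within a genotype. Symbols, positions and lengths came from GENCODE release 21, which matched all 72 Kcn genes, and promoters from RefSeq. Python 3.11.15, pandas 2.3.3 and matplotlib 3.10.9 made the tables and figures.

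The Kcn genes, the partner and marker lists and the tests were chosen with earlier results of these data known. Genes were named where they were called in any comparison, were among the 3 most abundant of their class or the 3 largest differences in either direction of a comparison, or were on a fixed list of known channels. Apart from tissue markers, genes of other families were named only among the channel partners, where called. A few genes are counted in the totals and medians but are not reported here.

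The fits were tested on simulated data with a log2 change of 1.5. Recovery was 96% of 200 changed genes for IP against input over all mice, 40.2% of 194 in hM3Dq mice and 77% of 200 in control mice. Between genotypes it was 68% of 200 in the IP, 70.5% of 200 in the input and 31.5% of 200 for IP over input per mouse. The simulated noise was independent between libraries, with no shared mouse effect. Its SD per gene was pooled over both genotypes and fractions, so the shares do not rank the real fits within hM3Dq and control mice. Those real fits called 1338 genes in hM3Dq mice and 678 in control mice. Changes were planted in genes at 1 FPKM or more in most libraries. The planted change exceeded every positive Kcn difference over all mice (highest 1.07), so the shares do not give the recovery of smaller differences. Alternatives were another pseudocount, no filter and a stricter one, no trend, quantile normalization, the block, 1 fit over all libraries, leaving out each mouse, and leaving out control mice 1, 5 and 6 together.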

Additional observations from a re-analysis of the deposited data

Results flagged for a closer look

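In 202 groups of 4 or 7 samples of the named Kcn genes, 9 had an extreme sample whose gap to the nearest other exceeded the 95% limit of Dixon's test, 6 of them high and 3 low, and chance flags about 1 in 20 groups. In hM3Dq mouse 3, Kcna1 had 34.8 FPKM in the IP, against 12.7 to 14.0 FPKM in the other hM3Dq IPs, and Kcna4 had 43.4 FPKM in the IP, against 10.1 to 12.3 FPKM. The input of the same mouse had 28.9 FPKM of Kcna2, against 14.8 to 15.9 FPKM in the other hM3Dq inputs. In hM3Dq mouse 4, the input had 1.59 FPKM of Kcnt1, against 4.27 to 4.91 FPKM in the others.

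In control mouse 1, the input had 115 FPKM of Kcna4, against 4.14 to 13.8 FPKM in the other control inputs, and 29.5 FPKM of Kcna2, against 16.1 to 20.5 FPKM. The same input was the low extreme of Kcnd2, at 3.73 FPKM, against 5.90 to 7.54 FPKM. This library had the lowest relative depth, 0.731, and 1895 genes at 0. In control mouse 4, Kcnj11 had 13.4 FPKM in the IP, against 2.12 to 4.59 FPKM in the other control IPs. In control mouse 6, Kcna6 had 9.11 FPKM in the input, against 17.9 to 24.4 FPKM in the others. No named Kcn gene moved one way in every hM3Dq mouse and the other way in every control mouse.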

How the results depend on the processing

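Over all mice the number of Kcn genes called in IP against input was 14, and 11 to 15 under the alternatives, with 12 to 15 when 1 mouse was left out. All genes called numbered 2341 in the main fit and 1857 to 2702 under the alternatives. In hM3Dq mice the number of Kcn genes was 10, and it was 6 with no filter, 4 in 1 fit over all libraries and 5 to 8 when 1 mouse was left out. All genes called there numbered 1338, 552, 678 and 575 to 836 in turn. In control mice the number of Kcn genes was 1, namely Kcnn2. It was 1 with no filter and 1 with no trend, which called Kcng1 higher in place of Kcnn2. It was 2 with a pseudocount of 0.1, 2 with a filter at 5 FPKM and 3 with quantile normalization. It was 7 in 1 fit over all libraries and 0 to 2 when 1 mouse was left out. All genes called in control mice numbered 678 in the main fit, 496 with no filter, 312 with no trend and 655 with the other pseudocount. They numbered 749 with the stricter filter, 744 with quantile normalization, 1395 in 1 fit and 330 to 768 without 1 mouse. Without the replicate block, that is without pairing IP and input of a mouse, the Kcn counts were 12 over all mice, 4 in hM3Dq mice and 4 in control mice. The counts over all genes were then 2123, 739 and 805. Between genotypes the count was 0 in the IP, in the input and in IP over input under every alternative run. With the replicate number as a block between genotypes it was 0 too. Those numbers name different animals, and deviations of same-numbered mice had correlations of -0.12 to 0.06 in the IP and -0.09 to 0.03 in the input. IP and input of the same animal had correlations of 0.14 to 0.33 in hM3Dq mice and -0.01 to 0.10 in control mice.

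Of 4741 values of single genes and medians under the alternatives, 4417 kept their sign and their side of the threshold, 24 passed it newly and 50 no longer passed it. The other 250 had the opposite sign, and 0 of these were called in either setting. The causes were not tested. The unknown number of reads, the low FPKM of genes such as Kcng1, and the number of hM3Dq mice, 4, limit the calls.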
